A study of Mus musculus with 2 samples.

Results

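Broad but moderate Foxf2 regions were stretches of the mouse genome where Foxf2 binding was called over at least 1000 bp with only a moderate number of sequenced tags. They were selected on the readout itself, as rows of the deposited peak list with a region size of 1000 bp or more and a normalized tag count (ChIP tags per 10000000) below 40. The rule chose 161 of 9165 regions, a further 161 regions of that width had 40 or more and are called broad strong here, and 5997 regions had the narrowest width of 500 bp. Width, tag count, score and fold over input were therefore fixed or shaped by the rule and are described without a test, while position, base composition and sequence motifs were not used by it.

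The material was palatal shelves, the outgrowths of the upper jaw that fuse into the palate, from mouse embryos at embryonic day E13.5. All embryos were homozygous for the allele Foxf2FLAG, in which genome editing with CRISPR/Cas9 had joined a 3xFLAG tag to the endogenous Foxf2 protein, and 50 pairs of shelves were pooled. There was 1 anti-FLAG ChIP library (26849463 tags) and 1 input library from the same kind of tissue (about 19240000 tags, from the deposited columns), with no replicate of either, so no difference here has a replicate check. Shelves contain several cell types, no library from untagged embryos was analysed here, and tags from different cells or from antibody background cannot be told apart.

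Foxf2 belongs to the forkhead family of transcription factors and is made in palatal mesenchyme. Forkhead proteins bind AT-rich sites through a winged-helix domain, and their core sequence is written RTAAAYA, with R for A or G and Y for C or T; GTAAACA is the best known form. Many mammalian promoters instead lie in CpG islands, stretches rich in G, C and the CpG dinucleotide that are usually free of DNA methylation and open in most cell types. Whether a region of called binding holds the factor's own sequence or lies in such open promoter DNA is a common question about a peak list.

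Both kinds occurred among the regions, and the sequences of a few are given as illustrations. The first set comes from regions over 1 kb from a transcription start site (TSS). Cacnb2 and Fam5c are the nearest genes of those with the most forkhead sites (7 each), Gm11161 is that of the region with more tags of the 2 with 6 sites (the other is at Ntn4), Met had the largest fold over input among them, and Osr2 is a palate regulator. Each line holds 200 bases of the plus strand of mm9 chosen for the most sites, with every RTAAAYA match on either strand in capitals. Of these regions, only that at Met had a site in its central 200 bp, the window used for the site shares given later. The central 500 bp of the Osr2 region had 55.6% GC. The stretches are chr2:14819501-14819700 (Cacnb2), chr1:148322936-148323135 (Fam5c), chr1:27855261-27855460 (Gm11161), chr6:17465773-17465972 (Met) and chr15:35228179-35228378 (Osr2).
Cacnb2: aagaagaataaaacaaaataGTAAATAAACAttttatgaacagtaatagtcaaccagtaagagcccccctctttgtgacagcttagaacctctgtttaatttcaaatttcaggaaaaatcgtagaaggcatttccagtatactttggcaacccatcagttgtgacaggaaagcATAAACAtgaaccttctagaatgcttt
Fam5c: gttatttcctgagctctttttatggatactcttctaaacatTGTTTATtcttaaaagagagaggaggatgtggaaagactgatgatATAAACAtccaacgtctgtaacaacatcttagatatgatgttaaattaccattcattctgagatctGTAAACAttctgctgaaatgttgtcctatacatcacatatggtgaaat
Gm11161: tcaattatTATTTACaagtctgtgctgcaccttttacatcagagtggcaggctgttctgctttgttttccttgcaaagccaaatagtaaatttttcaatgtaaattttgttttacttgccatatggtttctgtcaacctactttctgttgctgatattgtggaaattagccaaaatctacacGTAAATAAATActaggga
Met: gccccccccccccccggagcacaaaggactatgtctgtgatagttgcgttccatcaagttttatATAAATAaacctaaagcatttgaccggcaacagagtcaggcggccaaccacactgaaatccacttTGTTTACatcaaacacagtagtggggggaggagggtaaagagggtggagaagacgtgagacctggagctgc
Osr2: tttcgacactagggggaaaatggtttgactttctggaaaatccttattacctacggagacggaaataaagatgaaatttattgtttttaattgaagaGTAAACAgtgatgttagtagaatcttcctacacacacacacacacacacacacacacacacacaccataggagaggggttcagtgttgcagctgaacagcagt

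The second set shows the commoner kind. Ube2e3, Tab2 and Crim1 had the most tags among promoter regions that reach at least 200 bp upstream of a TSS without an annotated exon. Each line holds the 200 bases next to the TSS on its upstream side, read on the strand of the gene, with each CpG in capitals. The stretches are chr2:78709004-78709203 on the plus strand (Ube2e3), chr10:7676029-7676228 on the minus strand (Tab2) and chr17:78599388-78599587 on the plus strand (Crim1), all in mm9.
Ube2e3: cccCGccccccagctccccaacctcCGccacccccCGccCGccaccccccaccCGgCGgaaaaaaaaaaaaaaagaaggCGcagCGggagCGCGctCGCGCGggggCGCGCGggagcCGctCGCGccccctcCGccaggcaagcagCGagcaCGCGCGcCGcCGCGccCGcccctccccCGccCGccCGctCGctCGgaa
Tab2: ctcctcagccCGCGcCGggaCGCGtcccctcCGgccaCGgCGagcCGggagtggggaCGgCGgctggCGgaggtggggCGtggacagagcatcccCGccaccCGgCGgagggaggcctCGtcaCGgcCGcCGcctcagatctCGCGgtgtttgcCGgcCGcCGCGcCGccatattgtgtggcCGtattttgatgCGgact
Crim1: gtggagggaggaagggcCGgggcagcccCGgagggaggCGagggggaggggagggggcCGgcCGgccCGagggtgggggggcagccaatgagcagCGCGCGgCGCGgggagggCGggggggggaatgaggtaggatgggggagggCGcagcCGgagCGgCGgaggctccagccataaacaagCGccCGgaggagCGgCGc

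The 5 distal stretches had a GC content of 32.5% to 51% and 1 to 3 forkhead sites each. In the Fam5c stretch the sites were ATAAACA on the minus strand and ATAAACA and GTAAACA on the plus strand. In the Cacnb2 stretch GTAAATA and ATAAACA overlapped by 3 bases and a further ATAAACA lay toward the end. The 3 promoter stretches had a GC content of 74% to 79%, with 33 CpGs in Ube2e3, 29 in Tab2 and 20 in Crim1. Ube2e3 and Tab2 had no forkhead match in the stretch, and Crim1 had 1, shown in lower case near its 3′ end. The distal stretches were chosen for the most sites and the promoter stretches by position. Differences in sites and GC content between the sets thus partly follow from that choice. A match is a run of letters and not a measured contact with Foxf2.

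The regions were 1000 to 2096 bp wide, with a median of 1124 bp. Their normalized tag counts ran from 12.3 to 39.9 (median 25.7), which correspond to 33 to 107 ChIP tags (median 69). Per length they were slightly denser than narrow regions, at a median of 57.7 ChIP tags per kb against 44 for regions of 500 bp, whereas broad strong regions had 135. Input tags ran from 0 to 7 (median 3), or 2.92 per kb against 2 at 500 bp and 7.21 in broad strong regions. The genome means, at a genome size of 2000000000 bp, were 13.4 ChIP tags and 9.62 input tags per kb. Broad moderate regions stood at 4.29 times the ChIP mean and 0.304 times the input mean by median. Their fold over input thus combines ChIP tags above the genome mean with input tags below it. The calling required a 10-fold excess over input, which limits the input tags of any called region relative to its ChIP tags. Any further cause of the low input was not tested. The deposited fold over input had a median of 14.1, beside 12.9 for regions of 500 bp and 13.45 for broad strong regions. The authors' score had medians of 28, 22 and 42 in the same order.

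Values at the limits changed gradually. The 7 regions just below the tag limit lay nearest to Ube2e3, Tab2, Crim1, Ptbp2, Phf8, Gm11161 and Flrt2, with normalized tag counts of 39.1 to 39.9 and the last 3 tied at 39.1, and those just above it lay at Top2b, Lpgat1, Tbl1xr1, Rnf157 and Frmd6, with 40.2 to 41.0. Gm11161 and Flrt2 among the former, and Rnf157 and Frmd6 among the latter, were not promoter regions. At the width limit, regions of 1000 to 1004 bp lay at Hecw2, Igf2, Bmpr1a, Cdc42bpa and Arhgap23, and regions of 995 to 998 bp lay at Kpna1, Zfp36l2, Ppfia1, Brf2 and Mpp6. On each side of the width limit 4 of the 5 were promoter regions.

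**Figure D1:**
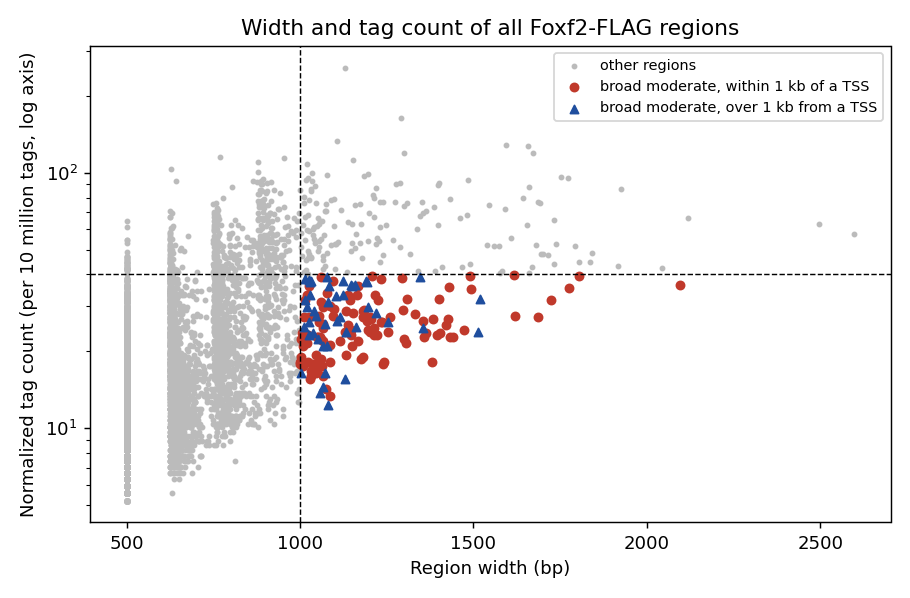
Each point is 1 called region, plotted by its width (bp) and its normalized tag count (log axis); dashed lines mark the limits of 1000 bp and 40. The 161 broad moderate regions fill the lower right, with 116 promoter regions (circles) and 45 others (triangles), and no triangle lies beyond 1519 bp.

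Broad moderate regions lay mostly at promoters. The centre was within 1 kb of a protein-coding TSS in 116 of 161 regions, or 72% (Wilson 95% interval 64.7 to 78.4), against 25.7% of all 9165 regions. Of the regions of 500 bp, 1364 of 5997 (22.7%, 21.7 to 23.8) lay so close, an odds ratio of 8.76 (2-sided Fisher exact test, Benjamini-Hochberg adjusted p = 2.04e-38). Broad strong regions, with the same minimum width and a median of 1197 against 1124 bp, were at promoters in 53 of 161 cases (32.9%, 26.1 to 40.5) (odds ratio 5.25, Fisher exact test, adjusted p = 4.82e-12). Regions of intermediate width stood at 29%. Counting error over regions is all that the intervals cover, with no allowance for the missing replicate. Regions near each other share their library and surroundings.

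Few broad moderate regions were far from a protein-coding TSS. Over 10 kb from any protein-coding TSS lay 36 of them (22.4%, 16.6 to 29.4), against 61.1% of the whole list and 62.9% of regions of 500 bp (odds ratio 0.17, Fisher exact test, adjusted p = 1.02e-24). Of the 45 centres over 1 kb away, 9 lay at 1 to 10 kb, 24 at 10 to 100 kb and 12 beyond 100 kb. Introns held 23 of the 45 and intergenic DNA held 22. None lay in a coding exon or untranslated region outside a promoter.

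**Figure D2:**
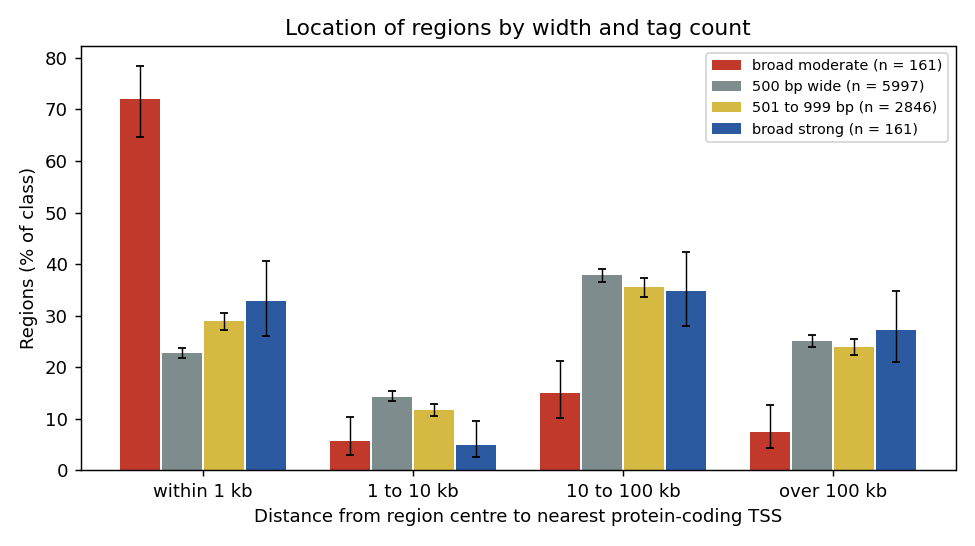
Bars give the percentage of regions in each class by distance from the centre to the nearest protein-coding TSS, with Wilson 95% intervals. Broad moderate regions reach 72% within 1 kb, while the other 3 classes stand between 22.7% and 32.9%.

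Promoter regions covered the start site itself in 105 of 116 cases. A wider region covers a TSS more easily, so the 55.4% of promoter regions of 500 bp that did so is given only beside it. Of the 116, 51 contained 2 or more annotated TSS positions, and 4 contained TSSs of 2 genes: Cyb5d2 and Zzef1, Thap4 and Atg4b, Gm5577 and H1fx, and 0610009L18Rik and Actg1. The centre lay downstream of the nearest TSS in 81 of 116 (69.8%, 60.9 to 77.4), beside 66.9% for promoter regions of 500 bp. The median offset was 105 bp into the gene.

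Base composition divided the regions as position did. In the central 500 bp, 120 of 161 had a GC content of 55% or more (74.5%, 67.3 to 80.6), against 27.6% of the whole list and 24.3% of regions of 500 bp (odds ratio 9.14, Fisher exact test, adjusted p = 4.2e-39). The CpG island criteria (GC of 50% or more and an observed to expected CpG ratio of 0.6 or more) were met by 115 (71.4%, 64 to 77.8). The whole list stood at 24.2% and regions of 500 bp at 20.4% (odds ratio 9.73, Fisher exact test, adjusted p = 1.46e-41). Median GC was 72.6% in broad moderate regions, 45.4% in regions of 500 bp and 45.8% in broad strong regions. Flanks of the same width as each broad moderate region, starting 1 region width from its edges, had a mean GC of 43.9%, against 63.2% over the whole regions.

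**Figure D3:**
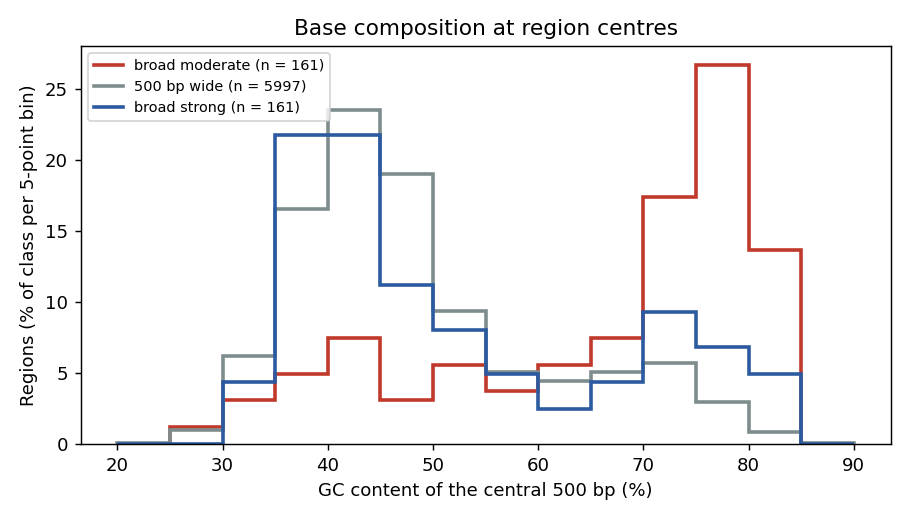
Lines show the percentage of regions in each 5-point bin of GC content over the central 500 bp. Broad moderate regions peak at 75 to 80% GC with a small second group near 40 to 45%, and the other classes peak below 50%.

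The difference in composition was also present at equal location, in a split chosen after the data were seen. Among promoter regions alone, 93.1% of the 116 broad moderate regions met the CpG island criteria against 77.6% of promoter regions of 500 bp (odds ratio 3.89, Fisher exact test, adjusted p = 3.56e-05). Their median GC was 75.4% against 67.2%. Over all 22359 protein-coding genes, the 500 bp around a TSS had a median GC of 57.4%, and 48.1% met the criteria. Away from promoters the same held for 15.6% of 45 against 3.6% of regions of 500 bp (odds ratio 4.93, Fisher exact test, adjusted p = 0.00168).

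The CpG-rich stretch under these promoters was long. Measured in 200 bp windows moved by 50 bp, the stretch at the 116 promoter regions had a median length of 1300 bp (quartiles 1037 and 1600), and it reached 1000 bp in 88 of them (75.9%, 67.3 to 82.7). The median was 850 bp at promoter regions of 500 bp and 1000 bp at those of intermediate width, with 38.9% and 53.3% reaching 1000 bp. At the 53 broad strong promoter regions it was 1250 bp (67.9%). The stretch was longer in the wider classes, and its quartiles overlapped widely between both broad classes (850 and 1600 in the strong one). Mean GC around broad moderate promoter centres rose from 43.8% in the bin 2900 bp to the left (lower coordinates) to 74% in the bin 100 bp to the right. GC content itself affects how well fragments are amplified and sequenced, and the part of this in the calls was not tested. Input tags per kb at promoter members had a median of 2.81 beside 3.8 at the others. ChIP tags per kb were also lower at promoter members, at 56.4 beside 66.95, and the calling limited input tags relative to ChIP tags.

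The tagged factor's own sequence was scarce in broad moderate regions. RTAAAYA occurred in the central 200 bp of 21 of 161 (13%, 8.69 to 19.1), against 40.8% of the whole list. Regions of 500 bp had it in 37.3% (odds ratio 0.252, Fisher exact test, adjusted p = 2.81e-11), and broad strong regions in 42.2% (odds ratio 0.205, adjusted p = 5.32e-09). Compared within 5-point bins of GC content, the Mantel-Haenszel odds ratio against regions of 500 bp was 0.807 with an interval of 0.459 to 1.42, which includes 1. At matched base composition a difference in forkhead sites was thus not detectable with these numbers.

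Split by location, promoter regions had a site in 4 of 116 centres (3.45%, 1.35 to 8.53). Promoter regions of 500 bp had it in 7.99% (odds ratio 0.411, Fisher exact test, adjusted p = 0.115), which did not pass the threshold, and the TSS windows of all protein-coding genes in 6.78%. The 4 were at Phf8, Gm10762, Vgll4 and Scp2, named after their values were seen. A window 2000 bp to the left of the same 116 centres had a site in 16.4%. This was more than the centres themselves had (exact McNemar test, 2-sided, p = 0.00149), in a split chosen after the data were seen. RTAAAYA read backwards, which keeps the base composition, stood at 1.72% in the centres and 20.7% in the window. Mean GC was 73.2% in the bin just left of the centre and 44% in the bin 2100 bp to the left. This test thus cannot tell a lack of forkhead sites from base composition. Broad strong promoter regions, also in a split chosen afterwards, had RTAAAYA in 20.8% of 53 centres (odds ratio 0.136, Fisher exact test, adjusted p = 0.000586).

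Away from promoters the picture differed. A site lay in the central 200 bp of 17 of 45 regions (37.8%, 25.1 to 52.4), against 45.9% of regions of 500 bp there (odds ratio 0.715, Fisher exact test, adjusted p = 0.296) and 52.8% of broad strong ones (odds ratio 0.543, adjusted p = 0.111). Neither difference passed the threshold. Over whole regions the density was 2.52 sites per kb in the 45 distal regions and 1.39 per kb in their flanks, close to the 2.62 and 1.17 of distal regions of 500 bp. The 116 promoter regions had 0.28 sites per kb, against 1.15 in their flanks. The same letters read backwards, which keep the base composition, occurred at 1.21 and 0.137 per kb in distal and promoter regions.

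**Figure D4:**
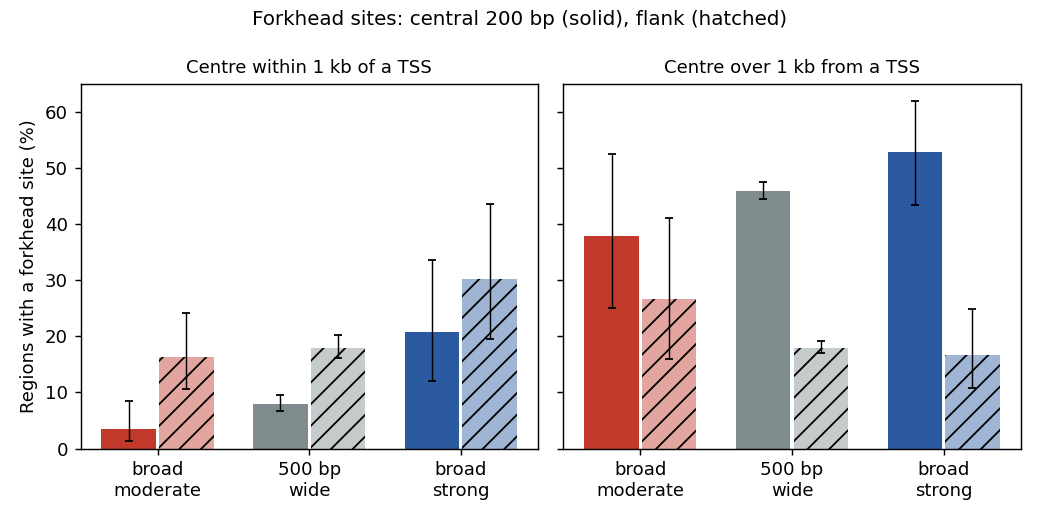
Bars give the percentage of regions with a forkhead site in the central 200 bp (solid) and in 200 bp lying 2000 bp away at lower coordinates (hatched), with Wilson 95% intervals. Broad moderate promoter regions have the lowest share, 3.45%, and the 45 others stand at 37.8%, with an interval that overlaps their flank.

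Distal broad moderate regions often held several sites spread over their width. Of the 45, 39 had at least 1 RTAAAYA and 31 had 2 or more, and GTAAACA occurred in 22. The broad strong distal regions held sites more often by count, with at least 1 in 107 of 108, 2 or more in 93 and GTAAACA in 71. They were slightly wider (median 1148.5 against 1081 bp), and these whole-region counts were not tested. In the 31, the first and last site lay 27 to 918 bp apart (median 602), and 19 spanned 500 bp or more, beside a median of 557 bp and 51 of 93 in broad strong distal regions. In the profile around distal centres, site density was highest in the bin at 300 bp on the left, at 3.33 per kb, with 2 to 2.67 per kb in the bins from 100 bp on the left to 300 bp on the right. Distal regions of 500 bp had 3.01 and 2.71 per kb in the bins next to the centre, where the sites were concentrated. Of the 116 promoter regions, 91 had no site over their whole width, 17 had 1 and 8 had 2 or more. At least 1 site thus lay in 21.6% of them (15 to 29.9), beside 19.2% of promoter regions of 500 bp and 81.1% (68.6 to 89.4) of the 53 broad strong promoter regions. A wider region holds a site more easily, and the median widths were 1146.5, 500 and 1489 bp in that order. Per length the same promoter regions held 0.28, 0.56 and 1.17 sites per kb.

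**Figure D5:**
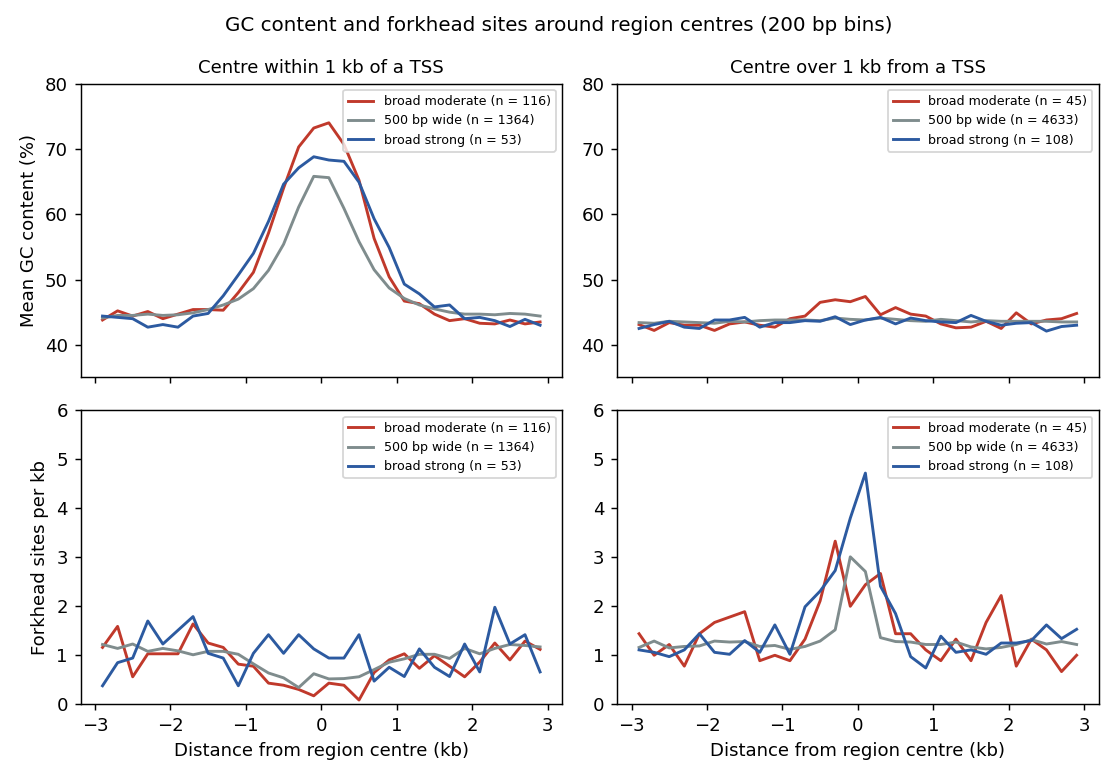
Lines show mean GC content (top) and forkhead sites per kb (bottom) in 200 bp bins within 3 kb of region centres, for promoter regions (left) and others (right). At broad moderate promoters GC rises to 74% while sites fall to between 0.0862 and 0.431 per kb within 0.5 kb of the centre; away from promoters sites rise to 3.33 per kb with GC of 44.6% to 47.4%.

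A few regions crossed this division. Among the 45 distal regions, 6 had a GC content of 65% or more, nearest to Ankrd33, Arhgap23, Ppara, BC034090, Hes1 and Pop7 (69.2% to 78.6%). Of these 6, 1 held a forkhead site, against 38 of the other 39. The Hes1 region lay 1510 bp upstream of its protein-coding TSS and 554 bp from a TSS of another gene type, and the other 5 lay 8139 bp or more from any annotated TSS. Among the 116 promoter regions, 5 had a GC content under 55%: Vgll4 (40%), Creb5 (50.4%), Pds5a (51.4%), Scp2 (52%) and Klf3 (53.6%). Each of the 5 held at least 1 forkhead site, and they were named after their values were seen.

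Vgll4, a cofactor of TEAD transcription factors, had the promoter region with the most sites, 6 in all and 3 of them GTAAACA. It is shown as the exception among promoters, at chr6:114872191-114872390 in mm9, plus strand, with RTAAAYA matches on either strand in capitals.
Vgll4: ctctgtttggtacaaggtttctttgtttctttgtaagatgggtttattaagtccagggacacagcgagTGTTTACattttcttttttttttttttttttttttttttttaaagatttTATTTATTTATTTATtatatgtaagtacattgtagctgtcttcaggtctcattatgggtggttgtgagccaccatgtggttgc
The long run of capitals holds 3 overlapping matches of ATAAATA on the minus strand, and the separate match is GTAAACA on the minus strand. Each overlapping match was counted among the 6 sites, and repeated sequence was not masked in the search. The whole region (chr6:114871708-114872851) had 85 ChIP tags against 4 input tags, a deposited fold of 15.2 (95% interval 5.73 to 57.2).

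Both strands of the central 200 bp were searched for 19 motifs in all, with overlaps between motifs left in. The GC box GGGCGG, bound by SP and KLF factors, occurred in 57.1% of broad moderate regions, 15.3% of regions of 500 bp and 17.9% of all regions (Fisher exact test, adjusted p = 1.12e-31). Within GC bins its odds ratio was 1.5 (0.965 to 2.33). The AP-2 sequence GCCNNNGGC occurred in 27.3%, 10.1% and 11.8% in the same order (adjusted p = 8.8e-09, Fisher exact test), with 0.76 (0.502 to 1.15) within GC bins. The YY1 sequence AAGATGGC occurred in 8 regions (4.97%), against 1.08% of regions of 500 bp and 1.13% of all (Fisher exact test, adjusted p = 0.00172). YY1 binds this sequence just downstream of many start sites, and it was the 1 motif of the 19 whose odds ratio within GC bins had an interval above 1 (3.49, 1.56 to 7.85). The intervals within GC bins were not adjusted over the 19 motifs, and this one rests on 8 regions.

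Among promoter regions, GGGCGG stood at 73.3% against 50.6% at 500 bp (Fisher exact test, adjusted p = 4.73e-05; 1.35, 0.836 to 2.17, within GC bins). AAGATGGC stood at 6.03% against 1.91%, which did not pass the threshold over the 19 motifs (adjusted p = 0.111, Fisher exact test), with 3.55 (1.45 to 8.68) within GC bins. Over all 161 regions, 11 of the 19 motifs passed as rarer than in regions of 500 bp, 3 as more frequent (GGGCGG, GCCNNNGGC and AAGATGGC), and 5 did not pass. Of the 11, 3 were forkhead forms and 1 was RTAAAYA read backwards. The RUNX sequence TGTGGT occurred in 4.97% against 13.3% and the E-box CATCTG in 4.97% against 15.9% (adjusted p = 0.00183 and 0.000175, Fisher exact test). Within GC bins both intervals included 1, and among the 45 distal regions no motif of the 19 passed.

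The strongest regions by tags were mixed in kind. Ube2e3, which encodes a ubiquitin-conjugating enzyme, had 107 ChIP tags against 7 input tags over 1616 bp, a fold of 10.95 (95% interval 5.14 to 27.9), with 194 CpGs and no forkhead site. Tab2, an adaptor of the TAK1 kinase in inflammatory signalling, had 106 against 5 (15.2, 6.31 to 47.7). Crim1, a transmembrane protein that binds BMPs, also had 106 against 5, with 2 forkhead sites, and the splicing regulator gene Ptbp2 had 106 against 2 (38, 10.3 to 318). These 4 had overlapping intervals, so their order by fold was not resolved.

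Phf8, a histone demethylase gene, had 105 ChIP tags in a region with 4 TSS positions, 61.4% GC and 2 GTAAACA sites. Wdr26, a subunit of a ubiquitin ligase, and Pdcd4, an inhibitor of translation, had promoter regions with 104 and 103 tags, and no forkhead site in either. The other 3 of the top 10 lay away from promoters and held sites. Gm11161 (757 kb from the region) had 6, Flrt2 (522 kb), a cell adhesion and guidance receptor, had 3, and an intron nearest to Dnm3 (9.84 kb), a dynamin, had 3.

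The widest regions were mostly promoters without sites. Stag2, a cohesin subunit, had the widest, chrX:39501974-39504070, with 98 ChIP tags against 4 input tags, 4 TSS positions, 181 CpGs and 1 GTAAACA. Cdk13, a kinase of RNA polymerase II, had 1777 bp with 258 CpGs, the most of any, and 95 tags. Ebf4, of the early B-cell factor family, Aes, a Groucho-related co-repressor, and the histone methyltransferase gene Setd2 had 85, 73 and 94 tags over 1724, 1686 and 1494 bp. None of these 4 had a forkhead site. Of the 10 widest, the 2 away from promoters were at Fbln1, a matrix glycoprotein gene (1519 bp, 2.06 kb from its TSS), and Klf12 (1513 bp, 120 kb), with 2 and 3 sites.

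The regions richest in forkhead sites were distal apart from Vgll4. Cacnb2, a calcium channel beta subunit, had 7 sites over 1021 bp in an intron 24.5 kb from its TSS, with 80 ChIP tags against 5 (fold 11.5, 4.71 to 36.3). Fam5c had 7 sites over 1108 bp, 19.5 kb away, with 71 against 5 (10.2, 4.16 to 32.3). Ntn4, a netrin of basement membranes, had 6 sites and 56 tags, and Plxna2, a semaphorin receptor, had 5 sites, 102 tags and a distance of 127 kb. The Met region, in an intron, held 88 ChIP tags against 1 input tag. Its fold of 63 had an interval of 11 to 2518, because it rests on 1 input tag. Met encodes the receptor of hepatocyte growth factor.

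The regions were spread thinly over genes. They were nearest to 147 protein-coding genes within 100 kb (0.657% of 22359), and 122 genes (0.546%) had a TSS within 1 kb of a centre. Hes1 and Pde3a were the 2 genes with 2 regions each. Hes1, a repressor induced by Notch signalling, had the GC-rich upstream region with 63 ChIP tags and a region 37.9 kb downstream with 97 tags, 50% GC and 1 site. Pde3a, a phosphodiesterase gene, had a promoter region of 48 tags with 73.6% GC and no site, and an intronic one of 42 tags with 44.2% GC and 4 sites. Both genes thus paired a GC-rich region with an AT-richer one.

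Of the 16 gene lists, 5 contained a gene with a promoter region of this kind, 8 genes in all of 504 (1.59%, beside 0.546% of all protein-coding genes). These 5 lists had 1 to 3 such genes each, and no list was tested against the background. Among 40 palate regulators the 1 was Foxf1a, the close relative of Foxf2. Its region (chr8:123606790-123607878) lay 952 bp upstream of the TSS with 81 ChIP tags against 5 (fold 11.6, 4.77 to 36.7) and 1 GTAAACA. Among 38 forkhead genes they were Foxf1a and Foxo1, the latter with 71 tags and no site. Osr2, a zinc finger gene needed for palatal shelf growth, had its region in an intron 2.92 kb from the TSS with 70 tags against 3 (16.7, 5.49 to 83). No broad moderate region was nearest to Foxf2 itself.

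Among 34 TGF-beta and BMP genes, the receptor gene Bmpr1a (60 tags) and the signal transducer gene Smad2 (77 tags) had a promoter region, with GC of 79% and 81.6% and no forkhead site. Among 51 chromatin regulators, 3 did: Mll1, a histone methyltransferase (76 tags), the Polycomb gene Cbx2 (73 tags, 1 GTAAACA) and the acetyltransferase gene Crebbp (72 tags). Jund, an AP-1 subunit, was the 1 of 28 immediate early genes, with 52 tags. Within 100 kb but not at a promoter lay regions of Zfp36l2, an mRNA decay factor (101 tags, 5 sites), Fbln1 (86 tags) and the synaptic gene Snap25 (77 tags, 1 GTAAACA). No gene of the hedgehog, Wnt, FGF, RNA processing, ribosomal protein, cell cycle, epithelial, endothelial or muscle lists was nearest to one. These lists had 16 to 52 genes each, and 0.657% of all protein-coding genes were nearest to a region, so their lack of one says little. The lists are also partial, so this lack holds for the listed genes only. The splicing regulator gene Ptbp2 and the genes Vangl2, Lgr4, Hnrnpa3, Celf1 and Ddx6 had a promoter region and were in none of them.

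Neighbouring regions were about as frequent as around narrow regions. Another called region lay within 10 kb of 25 of the 161 (15.5%, 10.7 to 21.9), beside 15.2% of regions of 500 bp and 21.7% of broad strong regions. The X chromosome held 4 of them (2.48%), beside 2.15% of regions of 500 bp.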

How the data were processed

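Per the submitters' processing notes, reads were aligned to mm9 and Bowtie 1.0.0, SAMtools 0.1.19 and HOMER (no version) were the listed tools. HOMER's histone style was used for calling, ChIP against input, per the file headers, with a fragment length of 112 bp, at most 1 tag per position, a tag threshold of 17 and a 10-fold excess over input and over the surrounding 10000 bp. The deposited signal is the ChIP tag count of each region scaled to 10000000 tags; the deposited coverage columns hold input tags and, at matching depth, ChIP tags. The deposited ratio, or fold, the deposited score and the authors' deposited p-value were used only as descriptions or not at all. The deposited region size is a width in bp. No separate file of the input library was used here.

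Scaled values were turned back into ChIP tags with the header's total (each within 0.134 of a whole number). Centres were compared with protein-coding TSSs of GENCODE vM1 and the NCBIM37 genome, the assembly of mm9, and coordinates are 1-based. Flank windows for single shares lay 2000 bp from the centre at lower coordinates; flanks for site density and GC had the region's own width and started 1 width from each edge. Shares against regions of 500 bp were compared by 2-sided Fisher exact tests (7 comparisons, Benjamini-Hochberg, threshold 0.05), against broad strong regions likewise, and centre against flank by an exact McNemar test. Motifs (19) were adjusted together in each subset. Odds ratios within 5-point GC bins are Mantel-Haenszel with a 95% interval that was not adjusted over motifs. Python 3.11.15, SciPy 1.17.1 and pysam 0.24.0 were used, and the tests were checked on simulated data. Of 509 list entries in 16 lists, 507 matched, 5 by an older symbol. Genes were named by rule: the 10 regions with most tags, the 10 widest, the 6 with most forkhead sites, list genes with a region, genes with most regions, and the 5 regions on each side of each limit (7 below the tag limit, with ties). The regions, lists, motifs and rule were chosen with earlier results of these data known. Splits of some comparisons by location, other limits, windows and flanks were tried as alternatives.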

Additional observations from a re-analysis of the deposited data

How the results depend on the processing

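The 11 compared shares and odds ratios were recomputed under 108 alternatives (other width and tag limits, windows, annotations, GC limits, flanks and comparison regions). Of these, 93 kept the direction and the side of the threshold, and all did so for the promoter share against regions of 500 bp (odds ratio 5.6 to 25.5), the distal share (0.0502 to 0.246), the GC-rich share (3.39 to 36.7), the CpG island share (3.89 to 18.2), the forkhead share over all regions (0.0336 to 0.461) and the promoter share against broad strong regions (5.15 to 8.96). With regions from 900 bp, the forkhead odds ratio turned to 1.1 away from promoters, 1.39 within GC bins and 1.19 for centre against flank; within GC bins it was 1.06 with the central 500 bp. At promoters it passed the threshold with the central 500 bp (0.441), a tag count below 30 (0.131), regions of 500 bp with a tag count of 10 or more (0.301) and all other regions as the comparison (0.314).

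Centre against flank over all 161 regions had 21 against 31 with a site (odds ratio 0.63, exact McNemar test, p = 0.174). It passed the threshold with a flank 5000 bp to the left (0.529), the motif read backwards (0.281), the central 500 bp (0.429) and regions from 1200 bp (0). In splits chosen after seeing the data it was 0.167 at promoters, past the threshold, and 1.56 away from them, not past it; against broad strong regions, the forkhead share no longer passed away from promoters (0.543). The causes of these changes were not tested. No paired analysis was possible because there was 1 ChIP library and 1 input library. With 45 distal regions, the site share there carries an interval of 25.1% to 52.4%.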
